A study of Mus musculus with 31 samples.

Results

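Cyclins, cyclin-dependent kinases (Cdks), and the factors that act on them, 42 genes in all, were followed in mouse embryonic stem cells (mESCs) with and without Ago2 and with and without a Trim71-binding region in the *Ago2* mRNA. The genes were taken by name from the RNA-seq table of 15034 genes. All 42 were in it, and 40 had a mean of at least 1 TPM (a level per transcript length, scaled to the same total in each library) over the 12 libraries and were tested. The other 2, *Ccnd2* and *Rb1*, were below this minimum.

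The cells were ES-E14TG2a mESCs kept in 2i+lif medium, in which a Gsk3 and a Mek inhibitor hold the cells in the naive state. By the study's methods, cells of all 4 genotypes carry a FLAG tag knocked in at both alleles of *Trim71*, so WT stands for tagged cells. WT cells had 2 libraries. CLIPΔ cells, which lack on both alleles the region of the *Ago2* 3′UTR that the RNA-binding protein Trim71 binds, had 2 libraries. The study's methods describe 2 independent CLIPΔ clones, and the labels do not say which clone a library came from. *Ago2* KO cells, made with a pair of guide RNAs against the coding region and grown from sorted single cells, had 4 libraries, and *Ago2* KO/CLIPΔ cells, which carry both changes, had 4 libraries. A part of the column names carries the code d3 in place of the genotype, and it was read as CLIPΔ because no other of the 4 labelled genotypes was left.

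Progress through the cell cycle depends on Cdks, which are active only when bound to a cyclin. D-type cyclins with Cdk4 or Cdk6 and E-type cyclins with Cdk2 phosphorylate the pocket proteins (Rb1 and its relatives), which then let go of E2f transcription factors, and A-type and B-type cyclins with Cdk2 and Cdk1 carry the cell through S phase and mitosis. Another set of Cdks (Cdk7, Cdk8, Cdk9, Cdk12, and Cdk13) acts on RNA polymerase II and its cofactors. Mouse ES cells are known for a short G1 phase, and their miRNAs of the miR-290 family are known to act on inhibitors of the G1/S transition. Ago2 carries the miRNAs, and Trim71, an RNA-binding protein with a ubiquitin ligase domain, is known to repress target mRNAs such as *Cdkn1a*.

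Before the cell-cycle genes, the libraries were checked. *Ago2* was at 28.2 and 21.6 TPM in WT, 27.3 and 20.3 TPM in CLIPΔ, 1.67, 1.85, 1.97, and 2.29 TPM in *Ago2* KO, and 1.51, 1.72, 2.87, and 2.60 TPM in *Ago2* KO/CLIPΔ mESCs, so it was low in every library labelled as lacking it. Summed TPM of 11 measured mESC markers was 11638.6 to 14838 in WT, 12143 to 12721 in CLIPΔ, 12827 to 13252 in *Ago2* KO, and 12308 to 14963 in *Ago2* KO/CLIPΔ mESCs; of 12 markers of primed or early differentiated cells in the table, 2 were under 1 TPM in every library, and the sums were 213 to 219, 203 to 213, 133 to 186, and 138 to 174 TPM in the same order. Abundant genes weigh most in these sums, and single markers moved both ways. Mean *Dppa3* was 23.5 TPM in WT, 193 TPM in CLIPΔ, 2.26 TPM in *Ago2* KO, and 2.06 TPM in *Ago2* KO/CLIPΔ mESCs. In the same order, mean *Klf4* was 1161, 778, 797, and 676 TPM, and mean *Klf2* was 1364, 1400, 2156, and 1989 TPM. Among the primed or early markers, mean *Nes* was 69.8, 103, 27.8, and 34.3 TPM. The 8 libraries without Ago2 stood apart from the 4 with it. Pearson correlations of log2(TPM + 1) were 0.939 to 0.978 between these sets, against 0.977 for the pair of WT libraries, 0.980 for the pair of CLIPΔ libraries, and 0.986 to 0.999 among the libraries without Ago2. The median log2(TPM + 1) of tested genes was 3.65 to 3.83 in libraries without Ago2 and 4.07 to 4.15 in libraries with it, so the loss of Ago2 and belonging to this set of libraries cannot be told apart. Within each *Ago2* KO genotype, libraries 1 and 2 formed a close pair (r = 0.997 to 0.999 within such pairs), and so did libraries 3 and 4. TPM values hold no read depth, so the depth of each library is unknown.

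Trim71 CLIP-seq, in which RNA bound to the tagged protein is sequenced, gave a deposited list of 498 peaks shared by both immunoprecipitations. Of the 42 cell-cycle genes, 4 (9.52%) had a peak, against 227 of 11287 tested genes (2.01%). They are the only Trim71 peaks of these genes in the list, so they are printed here, as 30 bases of the mm10 RNA strand with the peak in capitals.

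*Cdk6*, plus strand, chr5:3409328-3409357: tgttggggagcctACATggggactgagctg
*Cdkn1b*, plus strand, chr6:134925207-134925236: gtgtatgagAAAAACTTGGAAgtgtgcctg
*Cdk12*, plus strand, chr11:98224547-98224576: agctaatggaaggACTGgattactgtcaca
*Bub1*, minus strand, chr2:127829259-127829288: gaactcaCTGTGTAGACCAGGCTggactgg

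The *Cdk6* peak held 2954 reads and ranked 173 of 498 by reads. The file classes it as 3′UTR, but in the GENCODE annotation it lies in an intron, and 15 of the 30 bases are in repeats. The *Cdkn1b* peak, in the 3′UTR of the gene for the Cdk inhibitor p27, held 1692 reads (rank 311). The *Cdk12* peak held 1721 reads (rank 309) and lies in the coding sequence. The *Bub1* peak held 2019 reads (rank 278) and lies in an intron, with all 30 bases in repeats. Which libraries these reads were counted in is not stated, and the list has no value per replicate, so it was not tested.

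Because Ago2 acts through miRNA seeds, the 3′UTRs of the 42 genes (the longest 3′UTR among a gene's protein-coding GENCODE transcripts) were read for sites of the let-7 and miR-290 families. The mature sequences, from RefSeq, are given with bases 2 to 8, the seed, in capitals.

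let-7a-5p: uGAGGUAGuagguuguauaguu
miR-291a-3p: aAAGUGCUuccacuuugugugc

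A full let-7 site (CTACCTCA) was in 2 of 42 genes (4.76%), against 395 of 10835 tested genes with a 3′UTR (3.65%), and a full miR-291a-3p site (AGCACTTA) was in 1 of 42 (2.38%), against 368 (3.40%). The shorter seed match, which every full site also holds, was in 6 genes (14.3%, against 10.6%) for let-7 and in 9 genes (21.4%, against 16.7%) for miR-291a-3p. The full sites of each gene are shown with their mm10 position, in capitals within 30 bases.

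*Ccnf*, let-7, minus strand, chr17:24222572-24222601: gacagtaatgcCTACCTCAcaggaatgccg
*E2f6*, let-7, plus strand, chr12:16826407-16826436: cctagcgctctCTACCTCAgtgggtaagtc
*Cdk6*, miR-291a-3p, plus strand, chr5:3525320-3525349: cccgcacattcAGCACTTAtggactaggta
*Cdk6*, miR-291a-3p, plus strand, chr5:3528422-3528451: ataatagaaagAGCACTTAgcagatgggga

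The *Cdk6* 3′UTR, at 10217 bases, held both of the miR-291a-3p sites. A sequence match is no measurement of binding, and no site of the 3 genes overlapped a Trim71 peak.

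In WT mESCs, the kinases of G1 stood at both ends of the range. *Cdk4* was the highest of the 42 genes at 1489 ± 212 TPM (SD, n = 2), and *Cdk6*, which pairs with the same D-type cyclins, was near the bottom at 4.48 ± 0.263 TPM. The next after *Cdk4* were *E2f4* (379 ± 3.25 TPM), *Cdk2* (199 ± 25.1 TPM), *Cdk9* (198 ± 41.5 TPM), *Plk1* (196 ± 23.7 TPM), *Ccne1* (191 ± 47.6 TPM), and *Ccna2* (186 ± 8.44 TPM), and from *Cdk2* to *Ccna2* neighbours in this order overlapped in their libraries. Among the D-type cyclins, *Ccnd1* (127 ± 13.5 TPM) lay above *Ccnd3* (17.6 ± 3.21 TPM), and *Ccnd2* was at 1.70 ± 0.289 TPM. *Ccne1* lay above *Ccne2* (6.81 ± 2.17 TPM) with no overlap between their libraries. Of the pocket proteins, *Rb1* (0.705 ± 0.384 TPM) was the lowest of the 42 genes and *Rbl1* was at 10.02 ± 1.63 TPM. The inhibitor gene *Cdkn1b* (102 ± 3.54 TPM) was above *Cdkn2c* (4.68 ± 0.711 TPM), which codes for p18, an inhibitor of Cdk4 and Cdk6.

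**Figure D1:**
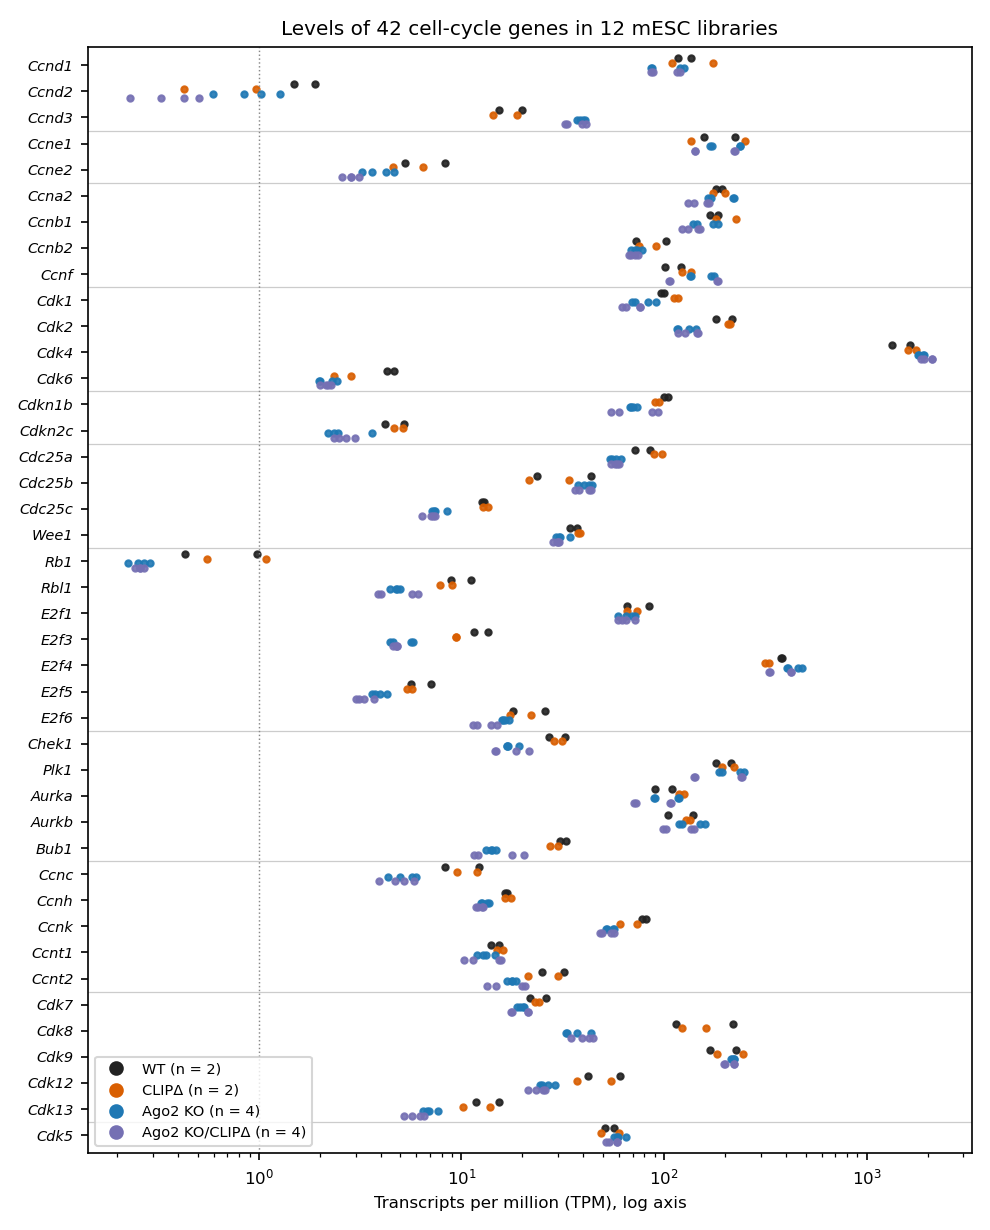
Level of each of the 42 genes in TPM, on a log axis, grouped by role, with 1 point per library and colours for the 4 genotypes. *Cdk4* lies at or above 1339.6 TPM in every library, while *Cdk6* lies between 1.99 and 4.67 TPM.

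To ask what the loss of Ago2 did to these genes, *Ago2* KO was compared with WT and, with no library in common, *Ago2* KO/CLIPΔ with CLIPΔ. Against WT, 2 of the 40 tested genes were higher (*Ccnd3* and *Cdk4*) and 20 were lower, most of all *Cdk8*, *E2f3*, and *Bub1*. Against CLIPΔ, 2 were higher (*Ccnd3* and *Cdc25b*) and 21 lower, most of all *Cdk8*, *Ccnc*, and *Cdk13*. In both comparisons 18 genes were lower and 1, *Ccnd3*, was higher, and 14 passed in neither. The share of all genes called alike in both comparisons was not counted, so these joint counts have no background here. Calls are adjusted p under 0.05 from limma, with Benjamini-Hochberg adjustment over all 11287 tested genes.

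These counts have to be read against all genes, since 14% of them were called higher and 42.4% lower against WT, and 12.8% and 42.1% against CLIPΔ. The share of lower genes (20 of 40) was near that background, and the share of higher genes (2 of 40) was below it. By the libraries alone, 23 of the 40 genes lay below WT and 4 above it with no overlap (all genes, 50.2% and 18.3%), and 26 lay below CLIPΔ and 4 above it (48.3% and 16.7%). In bulk libraries, fewer cells of a phase and less RNA per cell cannot be told apart. Without WT library 1, fewer of the 40 genes and fewer of all genes were called against WT. The same held against CLIPΔ without CLIPΔ library 1, and each of these fits left 1 library in a genotype. In the main fit, the median log2 fold change was -0.33 over the 40 genes and -0.26 over all genes against WT, and -0.44 and -0.25 against CLIPΔ. With the close pairs of libraries without Ago2 averaged, 1 of the 40 was higher and 15 lower in each comparison. Of 11397 genes then tested, 674 were higher and 2930 lower against WT, and 507 and 2743 against CLIPΔ. When libraries were scaled by a trimmed mean, 7 of the 40 were higher and 13 lower against WT (all genes, 26.7% and 26.7%), and 5 and 15 against CLIPΔ (26.3% and 25.6%). Centring on the median gave 7 and 11 (31.5% and 21%), and 5 and 13 (30.1% and 21%). Under both scalings the higher genes were *Ccnd3*, *Ccnf*, *Cdk4*, *Cdc25b*, *E2f4*, *Cdk9*, and *Cdk5* against WT. Against CLIPΔ they were *Ccnd3*, *Cdk4*, *Cdc25b*, *E2f4*, and *Cdk5*.

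Fold changes without Ago2 also moved with the GC content and the length of the transcript, over all genes. From the lowest to the highest quartile of GC content, the median log2 fold change against WT was -0.63, -0.35, -0.10, and 0.14, and from the shortest to the longest quartile it was 0.05, -0.16, -0.30, and -0.53. Of the 40 genes, 15 lie in the lowest quartile of GC content and 5 in the highest. Across the 40 genes, which share their libraries, Spearman's rho of fold change and GC content was 0.66 against WT and 0.67 against CLIPΔ, and it was 0.51 and 0.52 across 11212 genes. After a correction of each library for GC content and length, an alternative chosen after seeing this, 4 of the 40 genes were higher against WT (*Ccnd3*, *Cdk4*, *Ccnt1*, and *Cdk9*; all genes, 22.7%) and 9 lower (*Cdk2*, *Cdkn2c*, *Rbl1*, *E2f3*, *E2f5*, *Bub1*, *Ccnk*, *Cdk8*, and *Cdk12*; 21%). Against CLIPΔ, 6 were higher (*Ccnd3*, *Cdk4*, *Cdk6*, *Cdc25b*, *Ccnt1*, and *Cdk7*; 22.6%) and 7 lower (*Cdk2*, *Cdkn2c*, *Cdc25c*, *E2f3*, *E2f5*, *Cdk8*, and *Cdk12*; 19.9%). The correction also recentred each library, and the median log2 fold change of all genes against WT was 0.021 after it. What GC content and length did apart from this recentring was not tested. *Ccnd3* (higher) and *Cdk2*, *E2f3*, *Cdk8*, and *Cdk12* (lower) were the 5 genes called in both comparisons, in the same direction, under each of the 20 alternatives run for them. How many of all genes did the same was not counted.

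**Figure D2:**
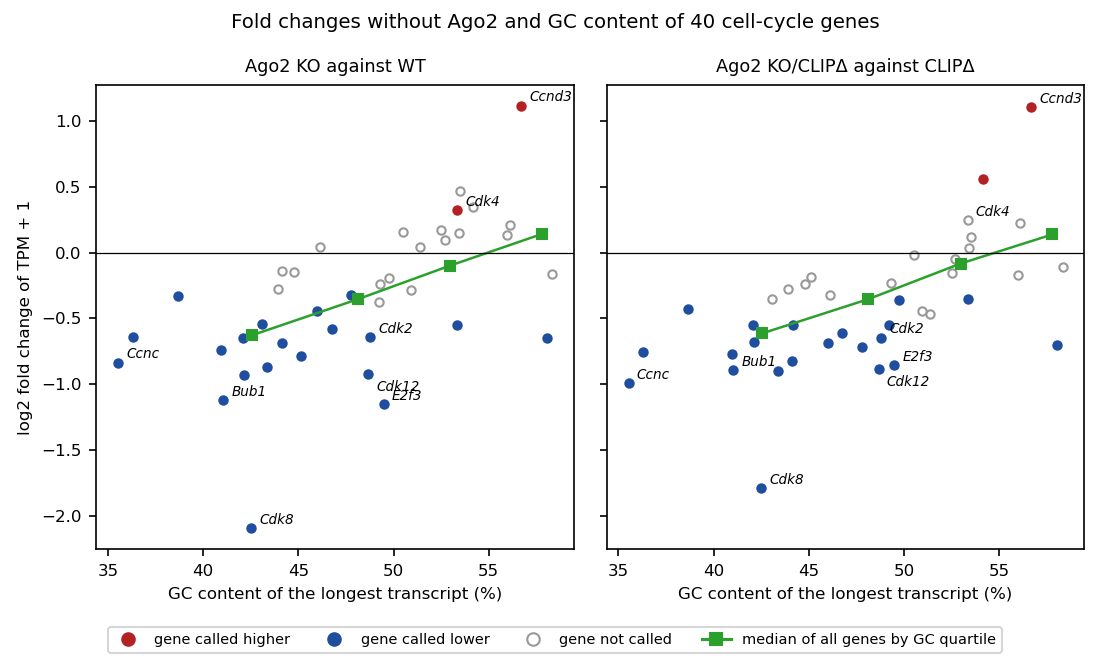
Log2 fold change of TPM + 1 without Ago2 (vertical axis) of the 40 tested genes against the GC content of their longest transcript in percent (horizontal axis), against WT on the left and against CLIPΔ on the right. Green squares join the medians of all genes in each quartile of GC content and rise from -0.63 to 0.14 on the left. *Ccnd3* lies above them, and *Cdk8*, *E2f3*, *Cdk2*, and *Cdk12* lie below them.

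**Figure D3:**
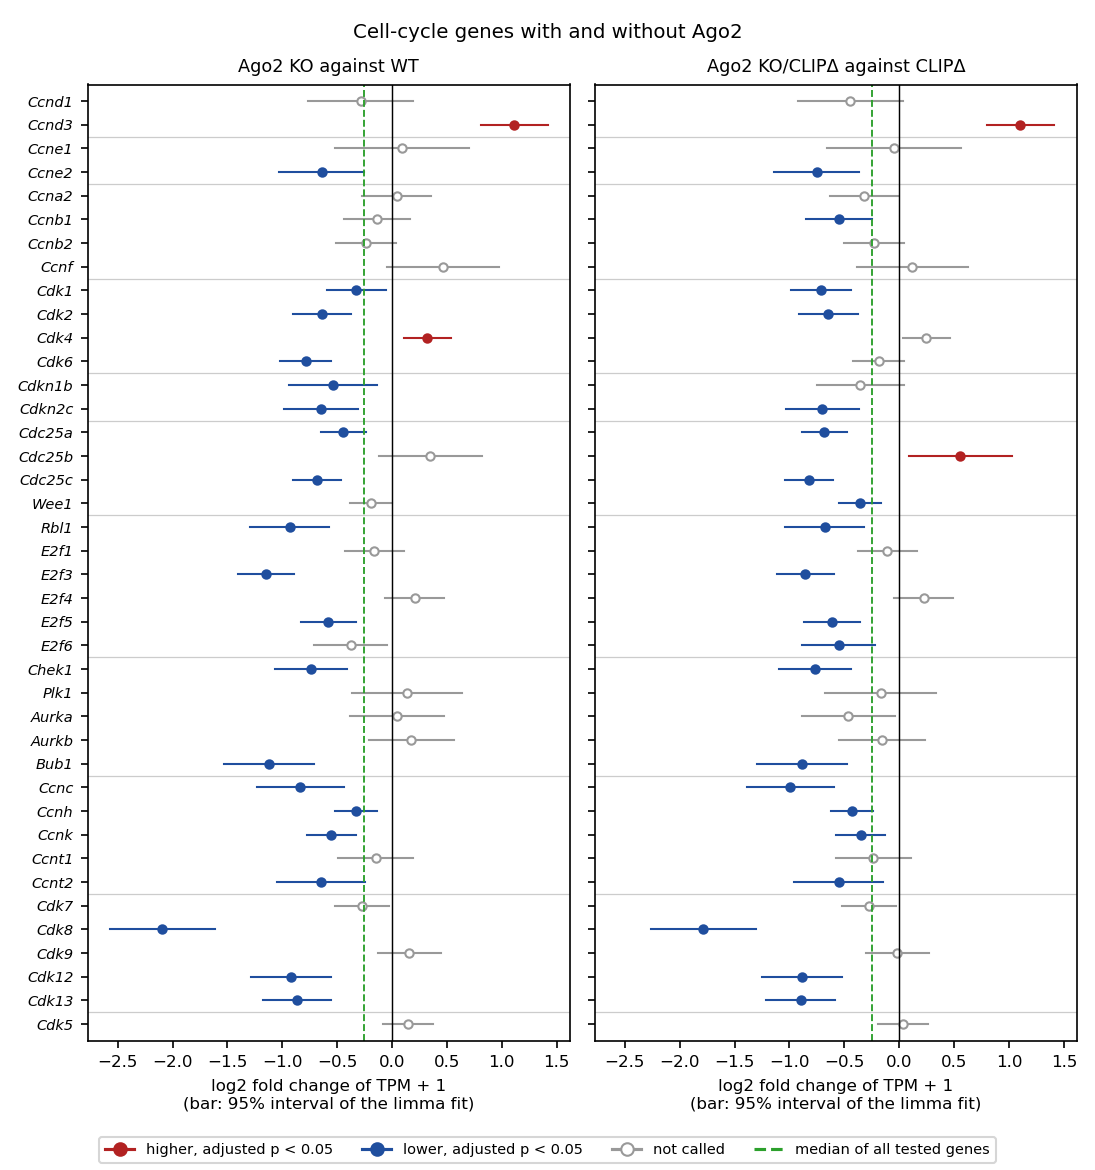
Log2 fold change of TPM + 1 of the 40 tested genes without Ago2, against WT and against CLIPΔ, with 95% intervals of the limma fit and the median of all tested genes as a dashed line. *Ccnd3* (1.11 and 1.10) lies farthest to the right and *Cdk8* (-2.09 and -1.78) farthest to the left.

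The D-type cyclins and their kinases went different ways. *Ccnd3*, 1 of the 3 D-type cyclin genes, was at 15.4 and 19.9 TPM in WT, 14.4 and 18.7 TPM in CLIPΔ, 40.7, 38.7, 39.7, and 37.3 TPM in *Ago2* KO, and 41.3, 39.4, 33.2, and 32.3 TPM in *Ago2* KO/CLIPΔ mESCs. All 8 libraries without Ago2 were above all 4 with it, and the mean was 2.21-fold higher than in WT. Its log2 fold change was 1.11 (SE 0.14, adjusted p = 1.18e-04) against WT and 1.10 (SE 0.14, adjusted p = 1.60e-04) against CLIPΔ. *Bysl*, a gene whose exons overlap *Ccnd3* on the other strand, had log2 fold changes of 0.35 (adjusted p = 0.0876) and 0.10 (adjusted p = 0.628), and since the strand setting of the counting is not stated, reads of the overlap cannot be told apart. *Ccnd1* ranged from 86.7 to 175 TPM over the 12 libraries and was not called.

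*Cdk4* was at 1339.6 and 1639 TPM in WT, 1609.9 and 1748 TPM in CLIPΔ, 1809, 1801, 1911, and 1893 TPM in *Ago2* KO, and 1856, 1924, 2099, and 2099.5 TPM in *Ago2* KO/CLIPΔ mESCs. The libraries without Ago2 did not overlap those with the matching *Ago2* 3′UTR, and the log2 fold change was 0.32 (SE 0.10, adjusted p = 0.0154) against WT and 0.25 (SE 0.10, adjusted p = 0.0501) against CLIPΔ, where it missed the threshold. *Tspan31*, which overlaps *Cdk4* on the other strand, had 0.19 (adjusted p = 0.134) against WT. *Cdk6* was at 4.67 and 4.29 TPM in WT, 2.34 and 2.86 TPM in CLIPΔ, 2.42, 2.29, 2.01, and 1.99 TPM in *Ago2* KO, and 2.01, 2.19, 2.28, and 2.15 TPM in *Ago2* KO/CLIPΔ mESCs. Both WT libraries were above the other 10, and the fold change was -0.79 (SE 0.11, adjusted p = 1.75e-04) against WT and -0.19 (SE 0.11, adjusted p = 0.152) against CLIPΔ. With the correction for GC content and length the value against WT was 0.042, and *Cdk6*, at 11525 bases, has the second longest transcript of the 42 genes after *Cdk13*. *Cdk4* and *Cdk6*, which share their cyclins, were called in opposite directions against WT, and the call was lost under 3 of 20 alternatives for *Cdk4*, leaving out WT library 1 among them, and under 2 for *Cdk6*. After the correction *Cdk4* was called against CLIPΔ too, at 0.28 (adjusted p = 0.0124), and *Cdk6* was called higher there, at 0.51 (adjusted p = 0.0101).

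The S-phase and mitotic kinases were both lower. *Cdk2*, the partner of E-type and A-type cyclins, was at 217 and 181 TPM in WT, 208 and 211 TPM in CLIPΔ, 143, 133, 118, and 115 TPM in *Ago2* KO, and 118, 127, 147, and 145 TPM in *Ago2* KO/CLIPΔ mESCs. The 8 libraries without Ago2 were all below the 4 with it, with log2 fold changes of -0.64 (SE 0.12, adjusted p = 0.00115) against WT and -0.65 (SE 0.12, adjusted p = 0.00124) against CLIPΔ. *Pmel*, on the other strand of *Cdk2*, moved the other way, with 0.51 (adjusted p = 0.0360) and 0.91 (adjusted p = 0.00209). *Cdk1*, the kinase that drives entry into mitosis, was at 97.0 and 100.1 TPM in WT, 117 and 112 TPM in CLIPΔ, 83.0, 91.6, 72.1, and 69.4 TPM in *Ago2* KO, and 75.9, 76.5, 62.0, and 64.9 TPM in *Ago2* KO/CLIPΔ mESCs. It did not overlap between cells with and without Ago2, and its fold change was -0.32 (SE 0.12, adjusted p = 0.0423) against WT and -0.71 (SE 0.12, adjusted p = 8.03e-04) against CLIPΔ. Against WT this call was lost under 13 of 20 alternatives, among them leaving out either WT library or *Ago2* KO library 1, 3, or 4, and under median centring the sign turned (0.023). Against CLIPΔ it was lost with the correction for GC content and length, at -0.31 (adjusted p = 0.102). *Cdk5*, which works mainly outside the cell cycle, ranged from 49.0 to 64.6 TPM and was not called in the main fit. Under both scalings it was called higher in both comparisons.

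**Figure D4:**
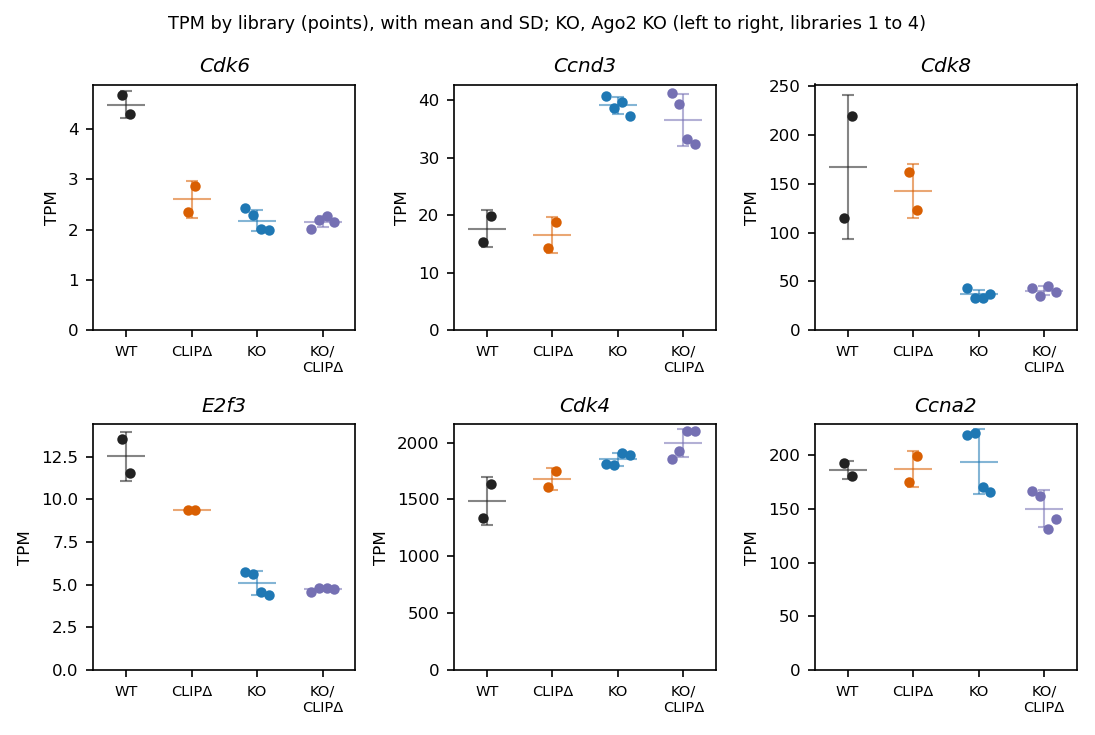
Level in TPM of *Cdk6*, *Ccnd3*, *Cdk8*, *E2f3*, *Cdk4*, and *Ccna2* in each library by genotype, with the mean and SD (n = 2 for WT and CLIPΔ, n = 4 for each *Ago2* KO genotype), on axes that start at 0. *Ccnd3* is at 14.4 to 19.9 TPM with Ago2 and at 32.3 to 41.3 TPM without it, and *Cdk8* is at 115 to 219.5 TPM and 33.0 to 44.8 TPM.

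Of the 6 E-type, A-type, B-type, and F-type cyclins, 1 was lower in both comparisons and 1 against CLIPΔ alone. *Ccne2* was at 8.34 and 5.27 TPM in WT, 6.45 and 4.61 TPM in CLIPΔ, 4.26, 3.61, 4.65, and 3.22 TPM in *Ago2* KO, and 3.11, 2.58, 2.84, and 2.86 TPM in *Ago2* KO/CLIPΔ mESCs. Each *Ago2* KO genotype lay below its counterpart with Ago2, and *Ccne2* changed by -0.64 (SE 0.18, adjusted p = 0.00929) against WT and -0.75 (SE 0.18, adjusted p = 0.00420) against CLIPΔ, but with the correction for GC content and length the values were 0.15 and 0.014. Leaving out WT library 1 ended the call against WT, and leaving out CLIPΔ library 1 ended that against CLIPΔ. *Ints8*, which overlaps *Ccne2* on the other strand, was at a mean of 12.8 TPM in WT. It had -0.43 (adjusted p = 0.0150) and -0.62 (adjusted p = 0.00220), so reads of the overlap cannot be told apart. *Ccne1*, the more abundant E-type cyclin, had 0.091 and -0.050 and was not called. *Ccnb1*, the cyclin of Cdk1 in mitosis, was at 184 and 168 TPM in WT, 227 and 180.4 TPM in CLIPΔ, 175, 184, 146, and 139 TPM in *Ago2* KO, and 147, 151, 123, and 132 TPM in *Ago2* KO/CLIPΔ mESCs. *Ago2* KO overlapped WT, with -0.14 (SE 0.14, adjusted p = 0.408), and *Ago2* KO/CLIPΔ lay wholly below CLIPΔ, with -0.55 (SE 0.14, adjusted p = 0.00580). This call was lost under 6 of 20 alternatives, among them leaving out CLIPΔ library 1 and the correction for GC content and length, at -0.073 (adjusted p = 0.723). The difference between the values of both comparisons did not pass (interaction -0.41 (SE 0.19, adjusted p = 0.642)). *Ccnb2*, *Ccnf*, and *Ccna2* were called in neither comparison, and their log2 fold changes ran from -0.32 (*Ccna2*, against CLIPΔ) to 0.46 (*Ccnf*, against WT). Under both scalings *Ccnf* was called higher against WT, and with the library number as a block it was called higher in both comparisons.

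Both Cdk inhibitor genes were lower against WT. *Cdkn2c* was at 4.18 and 5.19 TPM in WT, 4.62 and 5.15 TPM in CLIPΔ, 3.61, 2.46, 2.20, and 2.34 TPM in *Ago2* KO, and 2.70, 2.98, 2.48, and 2.34 TPM in *Ago2* KO/CLIPΔ mESCs. Its libraries did not overlap between cells with and without Ago2, and it fell by 0.65 on the log2 scale against WT (adjusted p = 0.00396) and by 0.70 against CLIPΔ (adjusted p = 0.00274), calls that were lost under 2 and 1 of 20 alternatives. *Cdkn1b*, which holds a Trim71 peak, was at 99.8 and 105 TPM in WT, 90.1 and 94.7 TPM in CLIPΔ, 69.0, 69.9, 67.8, and 73.8 TPM in *Ago2* KO, and 59.8, 54.8, 93.5, and 87.6 TPM in *Ago2* KO/CLIPΔ mESCs. The *Ago2* KO libraries lay below WT, with -0.54 (SE 0.18, adjusted p = 0.0248), while *Ago2* KO/CLIPΔ library 3 lay between the CLIPΔ libraries and the other 3 lay below both, with -0.35 (SE 0.18, adjusted p = 0.117). With the correction for GC content and length the value against WT was 0.073. The call against WT was lost under 7 of 20 alternatives, among them leaving out either WT library.

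Phosphatases of the Cdc25 family remove the inhibitory phosphates that Wee1 puts on Cdks. *Cdc25a* was at 71.8 and 85.2 TPM in WT, 89.1 and 97.4 TPM in CLIPΔ, 61.6, 58.2, 55.3, and 54.3 TPM in *Ago2* KO, and 54.8, 57.1, 60.2, and 58.5 TPM in *Ago2* KO/CLIPΔ mESCs. It was lower in each library without Ago2, with -0.44 (SE 0.09, adjusted p = 0.00207) against WT and -0.68 (SE 0.09, adjusted p = 2.26e-04) against CLIPΔ. Both calls were lost with the correction for GC content and length, at -0.018 (adjusted p = 0.901) and -0.23 (adjusted p = 0.0950). *Cdc25c* was at 13.0 and 12.6 TPM in WT, 13.6 and 12.8 TPM in CLIPΔ, 7.37, 8.53, 7.34, and 7.15 TPM in *Ago2* KO, and 6.41, 7.37, 7.11, and 7.20 TPM in *Ago2* KO/CLIPΔ mESCs. The libraries did not overlap between cells with and without Ago2, and the mean was 1.68-fold lower than in WT, with -0.68 (SE 0.10, adjusted p = 2.79e-04) and -0.82 (SE 0.10, adjusted p = 1.30e-04). The correction for GC content and length gave -0.24 (adjusted p = 0.0604) against WT, where the call was lost, and -0.34 (adjusted p = 0.0156) against CLIPΔ. *Cdc25b* was at 23.5 and 43.7 TPM in WT, 21.5 and 33.9 TPM in CLIPΔ, 43.9, 42.6, 40.3, and 37.7 TPM in *Ago2* KO, and 42.5, 43.8, 38.1, and 36.5 TPM in *Ago2* KO/CLIPΔ mESCs. The WT libraries differed widely and overlapped those of *Ago2* KO. *Cdc25b* was not called against WT (0.35 (SE 0.22, adjusted p = 0.186)), and it was called higher against CLIPΔ (0.55 (SE 0.22, adjusted p = 0.0458)), a call lost under 8 of 20 alternatives, among them leaving out CLIPΔ library 1 or *Ago2* KO/CLIPΔ library 1, 2, or 3. *Wee1* was at 37.0 and 34.3 TPM in WT, 38.6 and 37.6 TPM in CLIPΔ, 34.3, 30.5, 29.4, and 30.4 TPM in *Ago2* KO, and 28.2, 30.0, 30.2, and 29.6 TPM in *Ago2* KO/CLIPΔ mESCs. All libraries without Ago2 were below their counterparts, with -0.19 (SE 0.09, adjusted p = 0.0784) against WT and -0.36 (SE 0.09, adjusted p = 0.00476) against CLIPΔ, a call lost under 5 of 20 alternatives, at -0.10 (adjusted p = 0.254) with the same correction.

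Among pocket proteins and E2f factors, *E2f3*, *Rbl1*, and *E2f5* were lower in both comparisons, and in the main fit none of the group was higher. *E2f3*, an activating E2f, was at 13.5 and 11.5 TPM in WT, 9.39 and 9.37 TPM in CLIPΔ, 5.76, 5.64, 4.60, and 4.42 TPM in *Ago2* KO, and 4.58, 4.79, 4.80, and 4.77 TPM in *Ago2* KO/CLIPΔ mESCs. No library without Ago2 overlapped one with it, and the log2 fold change was -1.15 (SE 0.12, adjusted p = 4.96e-05) against WT and -0.86 (SE 0.12, adjusted p = 2.28e-04) against CLIPΔ. *Rbl1*, which codes for the pocket protein p107, was at 11.2 and 8.86 TPM in WT, 8.95 and 7.81 TPM in CLIPΔ, 4.98, 4.78, 4.46, and 4.75 TPM in *Ago2* KO, and 4.00, 3.89, 5.73, and 6.13 TPM in *Ago2* KO/CLIPΔ mESCs. Its libraries did not overlap between cells with and without Ago2, and the changes were -0.93 (SE 0.16, adjusted p = 7.32e-04) and -0.68 (SE 0.16, adjusted p = 0.00486). The call against CLIPΔ was lost under 3 of 20 alternatives, among them leaving out CLIPΔ library 1 and the correction for GC content and length, at -0.016 (adjusted p = 0.890), while the corrected value against WT was -0.25 (adjusted p = 0.0260). *E2f5*, a partner of pocket proteins, was at 7.10 and 5.62 TPM in WT, 5.36 and 5.70 TPM in CLIPΔ, 3.76, 4.30, 3.94, and 3.63 TPM in *Ago2* KO, and 3.11, 3.01, 3.30, and 3.70 TPM in *Ago2* KO/CLIPΔ mESCs. The fold changes were -0.58 (SE 0.12, adjusted p = 0.00153) and -0.61 (SE 0.12, adjusted p = 0.00129), and *1810022K09Rik*, which overlaps *E2f5* on the other strand and is far more abundant, fell from a mean of 90.7 TPM in WT to 37.3 TPM in *Ago2* KO (-1.25, adjusted p = 3.02e-04), so reads of the overlap cannot be told apart. The calls of *E2f5* were lost under 1 and 1 of 20 alternatives.

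*E2f6*, a repressive E2f with a let-7 site, was at 25.9 and 17.9 TPM in WT, 21.9 and 17.3 TPM in CLIPΔ, 16.4, 15.9, 16.0, and 17.2 TPM in *Ago2* KO, and 11.4, 11.9, 15.0, and 13.9 TPM in *Ago2* KO/CLIPΔ mESCs. It had -0.38 (SE 0.15, adjusted p = 0.0533) against WT, just outside the threshold, and -0.55 (SE 0.15, adjusted p = 0.0101) against CLIPΔ. That call was lost under 6 of 20 alternatives, among them leaving out CLIPΔ library 1 and the correction for GC content and length, at -0.28 (adjusted p = 0.101). *E2f1* (-0.16 and -0.11) and *E2f4* (0.21 and 0.22), the abundant E2f genes, were called in neither comparison. Under both scalings, and with the library number as a block, *E2f4* was called higher in both. *Rb1*, left out of the main test, was at 0.976 and 0.434 TPM in WT, 1.08 and 0.555 TPM in CLIPΔ, 0.252, 0.290, 0.226, and 0.272 TPM in *Ago2* KO, and 0.244, 0.258, 0.271, and 0.259 TPM in *Ago2* KO/CLIPΔ mESCs. With no filter on low values, it was lower against WT (-0.42, adjusted p = 0.0164) and against CLIPΔ (-0.52, adjusted p = 0.00615). *Ccnd2*, left out too, was at 1.90 and 1.49 TPM in WT, 0.425 and 0.969 TPM in CLIPΔ, 1.03, 1.27, 0.845, and 0.597 TPM in *Ago2* KO, and 0.425, 0.507, 0.230, and 0.328 TPM in *Ago2* KO/CLIPΔ mESCs, and with no filter it had -0.49 (adjusted p = 0.0244) against WT and -0.29 (adjusted p = 0.142) against CLIPΔ. The number of reads behind values this low is unknown.

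Of 5 checkpoint and mitotic kinases, *Bub1* and *Chek1* were lower and *Plk1*, *Aurka*, and *Aurkb* were not called. *Bub1*, a kinase of the spindle checkpoint, was at 32.9 and 30.6 TPM in WT, 30.1 and 27.4 TPM in CLIPΔ, 13.3, 14.8, 14.1, and 13.99 TPM in *Ago2* KO, and 12.1, 11.5, 17.7, and 20.4 TPM in *Ago2* KO/CLIPΔ mESCs. It was 2.26-fold lower than in WT, with -1.12 (SE 0.19, adjusted p = 5.51e-04) against WT and -0.89 (SE 0.19, adjusted p = 0.00226) against CLIPΔ. The call against CLIPΔ was lost under 1 of 20 alternatives, the correction for GC content and length, at -0.26 (adjusted p = 0.110). *Chek1*, the kinase of the replication checkpoint, was at 32.5 and 27.0 TPM in WT, 31.3 and 28.6 TPM in CLIPΔ, 17.0, 19.1, 16.7, and 16.7 TPM in *Ago2* KO, and 14.8, 14.6, 18.6, and 21.5 TPM in *Ago2* KO/CLIPΔ mESCs. Every library without Ago2 was below every library with it, and the changes were -0.74 (SE 0.15, adjusted p = 0.00167) and -0.77 (SE 0.15, adjusted p = 0.00150). With the same correction both calls were lost, at -0.10 (adjusted p = 0.298) and -0.12 (adjusted p = 0.217). *Plk1* (0.14 and -0.17), *Aurka* (0.044 and -0.46), and *Aurkb* (0.17 and -0.16), kinases of mitosis and cytokinesis, had standard errors of 0.18 to 0.23. With the library number as a block, *Plk1*, *Aurka*, and *Aurkb* were called higher against WT.

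The largest fall among the 40 genes was in a kinase that acts on transcription. *Cdk8*, the kinase of the Mediator complex, was at 115 and 219.5 TPM in WT, 162 and 123 TPM in CLIPΔ, 43.6, 33.0, 33.2, and 37.2 TPM in *Ago2* KO, and 42.8, 34.9, 44.8, and 39.4 TPM in *Ago2* KO/CLIPΔ mESCs. The gap held although the WT libraries themselves differed widely, and the mean was 4.55-fold lower than in WT and 3.52-fold lower than in CLIPΔ. The log2 fold change was -2.09 (SE 0.22, adjusted p = 5.22e-05) and -1.78 (SE 0.22, adjusted p = 1.34e-04). *Ccnc*, the cyclin of Cdk8, was at 12.2 and 8.27 TPM in WT, 11.98 and 9.49 TPM in CLIPΔ, 5.70, 5.96, 4.34, and 4.96 TPM in *Ago2* KO, and 4.70, 3.90, 5.20, and 5.85 TPM in *Ago2* KO/CLIPΔ mESCs. It fell too, with -0.84 (SE 0.18, adjusted p = 0.00234) and -0.99 (SE 0.18, adjusted p = 0.00100), but with the correction for GC content and length it was 0.016 against WT and -0.19 (adjusted p = 0.110) against CLIPΔ, both calls lost, and its transcript has the lowest GC content of the 42 genes, at 35.5%.

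*Cdk12*, which phosphorylates RNA polymerase II during elongation and whose coding sequence holds a Trim71 peak, was at 60.4 and 42.3 TPM in WT, 54.7 and 37.0 TPM in CLIPΔ, 28.9, 26.6, 25.1, and 24.3 TPM in *Ago2* KO, and 21.4, 23.4, 25.3, and 25.8 TPM in *Ago2* KO/CLIPΔ mESCs. No library without Ago2 reached one with it, and the changes were -0.92 (SE 0.17, adjusted p = 8.48e-04) and -0.88 (SE 0.17, adjusted p = 0.00124). *Cdk13*, its close relative, was at 15.4 and 11.8 TPM in WT, 13.8 and 10.2 TPM in CLIPΔ, 7.64, 6.95, 6.48, and 6.77 TPM in *Ago2* KO, and 5.20, 5.69, 6.51, and 6.24 TPM in *Ago2* KO/CLIPΔ mESCs. The values of -0.86 (SE 0.14, adjusted p = 5.28e-04) and -0.90 (SE 0.14, adjusted p = 5.03e-04) were alike in size, yet the value of *Cdk13* against WT was 0.057 with the correction for GC content and length, and -0.11 (adjusted p = 0.275) against CLIPΔ, both calls lost. *Ccnk*, the cyclin of Cdk12 and Cdk13, was at 81.9 and 77.7 TPM in WT, 73.8 and 60.5 TPM in CLIPΔ, 56.8, 55.9, 52.2, and 51.5 TPM in *Ago2* KO, and 54.9, 56.7, 49.2, and 48.3 TPM in *Ago2* KO/CLIPΔ mESCs. Its log2 fold changes were -0.55 (SE 0.10, adjusted p = 0.00101) and -0.35 (SE 0.10, adjusted p = 0.0129), calls lost under 2 and 7 of 20 alternatives, among them, against CLIPΔ, leaving out CLIPΔ library 1 and the correction, at -0.29 (adjusted p = 0.0588).

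*Ccnt2*, a cyclin of Cdk9, was at 24.9 and 32.2 TPM in WT, 21.3 and 29.9 TPM in CLIPΔ, 18.7, 17.7, 16.8, and 17.7 TPM in *Ago2* KO, and 13.3, 14.8, 20.5, and 20.01 TPM in *Ago2* KO/CLIPΔ mESCs. It had -0.65 (SE 0.18, adjusted p = 0.0111) and -0.55 (SE 0.18, adjusted p = 0.0242), with 0.20 and 0.21 after the correction for GC content and length. Its calls were lost under 6 and 10 of 20 alternatives, among them leaving out WT library 2, and leaving out CLIPΔ library 2 or *Ago2* KO/CLIPΔ library 1 or 2. *Ccnh*, the cyclin of Cdk7, was at 16.4 and 16.8 TPM in WT, 16.3 and 17.6 TPM in CLIPΔ, 12.4, 13.7, 13.4, and 12.6 TPM in *Ago2* KO, and 12.8, 12.02, 11.8, and 12.6 TPM in *Ago2* KO/CLIPΔ mESCs. Its fall was small, with -0.33 (SE 0.09, adjusted p = 0.00770) and -0.43 (SE 0.09, adjusted p = 0.00188), and the same correction turned it to 0.29 and 0.22. *Rasa1*, which overlaps *Ccnh* on the other strand, had -0.90 (adjusted p = 0.00318) and -0.97 (adjusted p = 0.00219), so reads of the overlap cannot be told apart. *Cdk9*, the kinase that releases paused RNA polymerase II, ranged from 169 to 246 TPM, *Cdk7* from 17.6 to 26.2 TPM, and *Ccnt1* from 10.3 to 16.0 TPM. None of the 3 was called in the main fit, and under both scalings *Cdk9* was called higher against WT.

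To ask what the Trim71-binding region of the *Ago2* mRNA did, CLIPΔ was compared with WT. Of 40 genes, 0 were higher and 1, *Cdk6*, was lower by limma (all genes, 1.46% and 0.806%), and 3 had an unadjusted p under 0.05 (12.9%). Over all genes, 256 (2.27%) were called, 165 higher and 91 lower, against 101 (79 higher and 22 lower) without CLIPΔ library 1 and 390 (197 and 193) without CLIPΔ library 2. The median log2 fold change was -0.0061 over the 40 genes and -0.05 over all. *Cdk6*, with the library values given above, was 1.72-fold lower in CLIPΔ, at 2.60 ± 0.368 TPM against 4.48 ± 0.263 TPM (SD, n = 2), with -0.61 (SE 0.12, adjusted p = 0.0264). Both CLIPΔ libraries lay below both WT libraries, which also served as the reference for *Ago2* KO. The call did not hold when only these 4 libraries were fitted (adjusted p = 0.857, 0 genes called), when the close pairs of *Ago2* KO libraries were averaged (0.281), when WT library 1 or CLIPΔ library 1 was left out, or with the correction for GC content and length.

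The other 4 of the 5 genes with the largest differences were not called. *E2f3*, lower in both CLIPΔ libraries than in both WT libraries, had -0.38 (SE 0.14, adjusted p = 0.228). *Aurka* was at 90.1 and 110.1 TPM in WT, 125 and 119 TPM in CLIPΔ, 117, 118, 89.1, and 90.4 TPM in *Ago2* KO, and 107, 108, 70.9, and 73.1 TPM in *Ago2* KO/CLIPΔ mESCs, and it had 0.29 (SE 0.23, adjusted p = 0.679) in CLIPΔ, above WT with no overlap. *Ccnk* had -0.25 (SE 0.12, adjusted p = 0.403) and *Cdc25a* 0.25 (SE 0.11, adjusted p = 0.345). The 95% intervals of the fold change were -0.07 to 0.43 for *Cdk4*, -0.23 to 0.39 for *Cdk2*, and -0.44 to 0.26 for *Ccnd3*. For *Cdkn1b*, the inhibitor with a Trim71 peak, the interval was -0.60 to 0.31. WT and CLIPΔ had 2 libraries a group, but the fit pooled the spread of each gene over all genotypes. Most of the pooled libraries were *Ago2* KO or *Ago2* KO/CLIPΔ libraries, which form close pairs. So the width of these intervals does not rest on the WT and CLIPΔ libraries alone.

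Without Ago2, the same region was compared between *Ago2* KO/CLIPΔ and *Ago2* KO. By limma 0 of 40 genes were called, 3 had an unadjusted p under 0.05 (all genes, 11%), and 99 of all genes (0.877%, 31 higher and 68 lower) were called, or 21 to 68 when 1 library was left out. With libraries scaled by a trimmed mean 54 were higher and 60 lower, and with median centring 43 and 45. The largest difference was in *Ccna2*, the cyclin of S phase and G2, at 192 and 180.5 TPM in WT, 175 and 199 TPM in CLIPΔ, 219, 221, 170.1, and 165 TPM in *Ago2* KO, and 167, 162, 131, and 140.3 TPM in *Ago2* KO/CLIPΔ mESCs. *Ago2* KO/CLIPΔ library 1 lay within the range of *Ago2* KO, and the fold change was -0.36 (SE 0.12, adjusted p = 0.230). Same-numbered libraries of these genotypes deviated together, as did differently numbered libraries of the same close pair (libraries 1 and 2, or 3 and 4), and with the number as a block *Ccna2* was called lower (adjusted p = 0.0370) among 180 genes (1.04% of all genes lower), the only one of the 40. That call was lost again when the block was combined with the correction for GC content and length (adjusted p = 0.0531) and when close pairs of libraries were averaged, where no gene was called.

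Next came *Ccne2* (-0.35 (SE 0.14, adjusted p = 0.381)), *E2f6* (-0.31 (SE 0.13, adjusted p = 0.367)), *Plk1* (-0.22 (SE 0.19, adjusted p = 0.760)), and *Aurka* (-0.22 (SE 0.16, adjusted p = 0.696)). *Plk1* was at 179.6 and 213 TPM in WT, 222 and 194 TPM in CLIPΔ, 249, 238, 193, and 187 TPM in *Ago2* KO, and 241, 242, 140.0, and 142 TPM in *Ago2* KO/CLIPΔ mESCs. Its spread within each *Ago2* KO genotype was wider than the difference between them. *Cdk6* was at 2.16 ± 0.112 TPM in *Ago2* KO/CLIPΔ and 2.18 ± 0.212 TPM in *Ago2* KO (SD, n = 4), with -0.0073 (95% interval -0.20 to 0.18).

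Whether the effect of the region differs between cells with and without Ago2 was tested as an interaction. Of 40 genes 0 passed by limma, with 2 at an unadjusted p under 0.05 (all genes, 8.01%), and 73 of all genes (0.647%) passed, or 48 without *Ago2* KO library 2 and 137 without CLIPΔ library 2. *Cdk6* came first with 0.60 (SE 0.15, adjusted p = 0.142), followed by *Aurka* (-0.51 (SE 0.28, adjusted p = 0.727)), *Ccnb1*, *Cdk1* (-0.39 (SE 0.18, adjusted p = 0.613)), and *Ccna2* (-0.36 (SE 0.20, adjusted p = 0.733)). So the fall of *Cdk6* in CLIPΔ cells with Ago2 was not shown to differ from its change without Ago2.

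**Figure D5:**
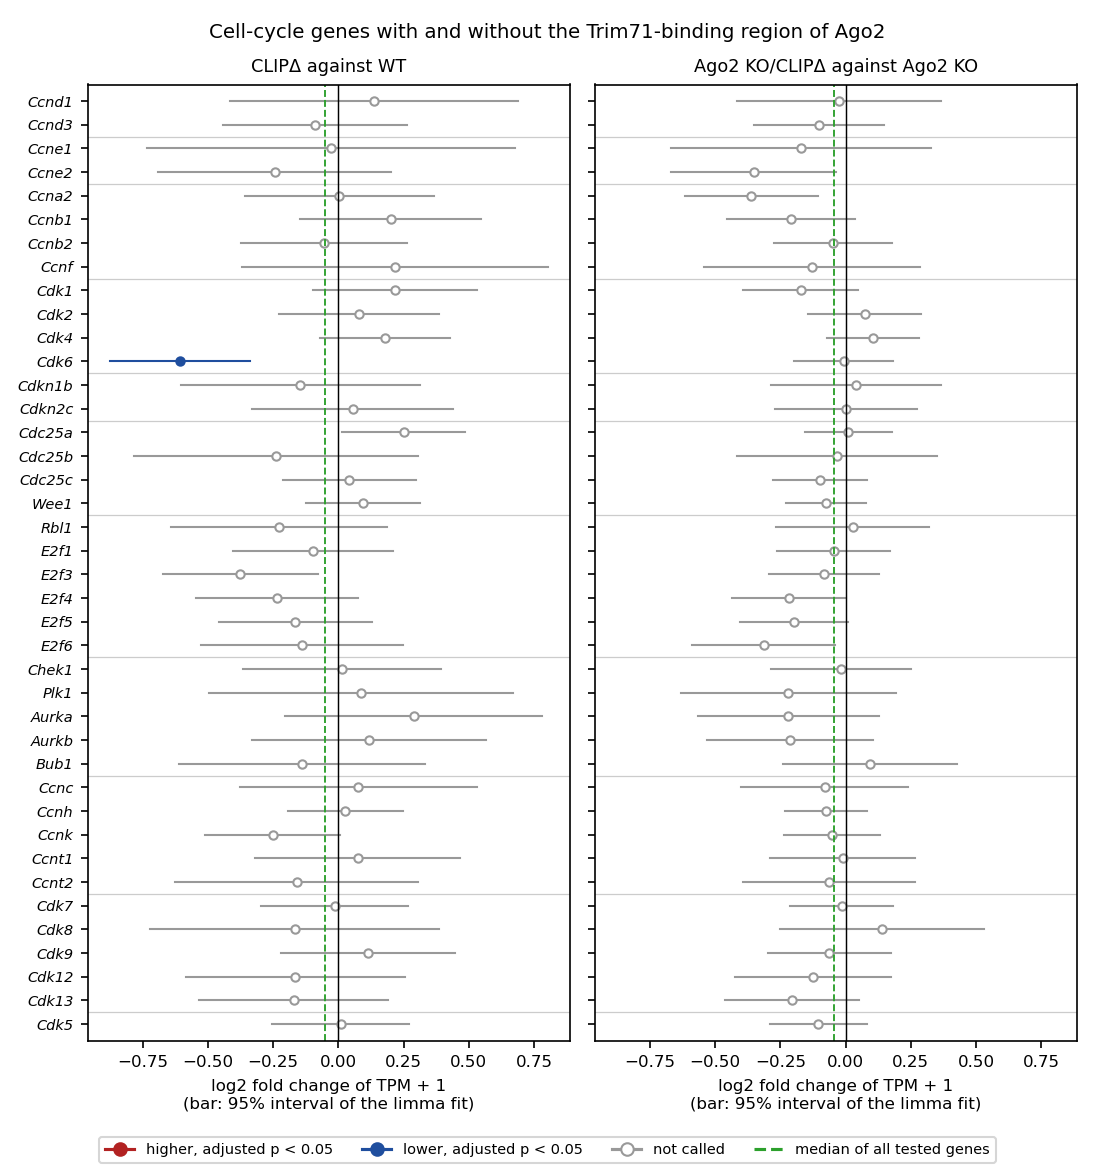
Log2 fold change of TPM + 1 of the 40 tested genes with the Trim71-binding region deleted, in cells with Ago2 (CLIPΔ against WT) and without it (*Ago2* KO/CLIPΔ against *Ago2* KO), with 95% intervals of the limma fit. *Cdk6* at -0.61 on the left is the only filled point, and on the right its value is -0.0073.

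The close pairs of libraries showed in the cell-cycle genes. In *Ago2* KO, libraries 1 and 2 were above libraries 3 and 4 with no overlap for 29 of 40 genes (all genes, 45.5%) and below them for 2 (21.2%), and in *Ago2* KO/CLIPΔ they were above for 15 (24.9%) and below for 17 (56.2%). In both *Ago2* KO genotypes, libraries 1 and 2 were the higher pair for 14 of 40 genes (all genes, 16.9%), and the other way for 2 of 40, *Cdk4* and *E2f1* (16.5%). The 14 were *Ccnd1*, *Ccne1*, *Ccna2*, *Ccnb1*, *Ccnf*, *Cdk1*, *Cdkn2c*, *Cdc25b*, *E2f4*, *Plk1*, *Aurka*, *Aurkb*, *Ccnk*, and *Cdk9*. *Ccnf* was at 177, 171, 136, and 134 TPM in *Ago2* KO and 183, 185, 108, and 106 TPM in *Ago2* KO/CLIPΔ mESCs, so the pairs differed 1.29-fold and 1.72-fold. The ratio of pairs in *Ago2* KO/CLIPΔ was 1.71 for *Plk1*, 1.57 for *Ccne1*, and 1.497 for *Aurka*. Other genes went one way in one genotype only, such as *Bub1*, where libraries 3 and 4 of *Ago2* KO/CLIPΔ were 1.61-fold above libraries 1 and 2. The labels do not say what the pairs share, and no test was made.

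Mitotic genes often carry a CHR element and CCAAT boxes in their promoters, so these were looked for in RefSeq promoters (GRCm38.p6, windows of 1 fixed length that span the transcription start), which were at hand for 30 of the 42 genes. The CHR letters (TTTGAA or TTCGAA, either strand) were in 8 of 30 (26.7%), against 16.0% of tested genes with a promoter entry, a CCAAT box (CCAAT, either strand) in 18 of 30 (60%, against 43.7%), and an E2F site (TTTGGCGC or TTTCCCGC, either strand) in 3 of 30 (10%, against 3.64%). The 8 were *Ccnb2*, *Ccnf*, *Cdk1*, *Cdc25b*, *E2f3*, *Plk1*, *Aurka*, and *Bub1*. Of these, 5 (*Ccnf*, *Cdk1*, *Cdc25b*, *Plk1*, and *Aurka*) were among the 14 genes higher in libraries 1 and 2, as were 14 of all 40 tested genes, and the other 3 (*Ccnb2*, *E2f3*, and *Bub1*) were not, with *Bub1* higher in libraries 3 and 4 of *Ago2* KO/CLIPΔ. As examples, 4 of the 5 are shown with the letters in capitals.

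*Ccnf*, minus strand, chr17:24251407-24251434: ctcccggcgcgTTTGAAaacggggcggg
*Plk1*, plus strand, chr7:122159454-122159481: ccagcgccgcgTTTGAAttcggggagga
*Aurka*, minus strand, chr2:172370522-172370549: aaaggagaaccTTTGAAttgtaacggct
*Cdk1*, minus strand, chr10:69352911-69352938: accgcggcgagTTTGAAactgctggcac

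A match of 6 letters describes the sequence and is no measure of a factor at it.

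Genes of the same pathways outside the 42 were counted by 6 lists. These lists had 0 genes called in CLIPΔ against WT, in *Ago2* KO/CLIPΔ against *Ago2* KO, or in the interaction, by limma, where all genes were called in 2.27%, 0.877%, and 0.647%. At these rates few calls would fall in any single list of 11 to 41 genes. Whether 0 calls over the 6 lists together is fewer than these rates give was not tested. Among DNA damage and replication checkpoint genes, 15 of 19 were lower against WT and 15 of 19 against CLIPΔ, with 0 higher, and all genes were lower in 42.4% and 42.1% and higher in 14% and 12.8%. *Mdm2*, which codes for the ubiquitin ligase of p53, had -1.25 (SE 0.32, adjusted p = 0.00621) and *Brca2*, a recombination gene, -1.15 (SE 0.17, adjusted p = 2.50e-04) against WT. Among mitosis and spindle genes, 21 of 37 were lower and 2 higher against WT, and 27 and 1 against CLIPΔ, with *Mki67*, the proliferation marker, at -1.76 (SE 0.15, adjusted p = 2.47e-05) and *Cenpe*, a kinetochore motor, at -1.54 (SE 0.16, adjusted p = 5.44e-05). These are transcript levels and no measure of growth. In its own proliferation assay, the paper reports similar growth for all the genotypes compared here, with and without Ago2.

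Of other Cdk inhibitors, pocket proteins, and E2f or Dp factors, 8 of 11 were lower and 1 higher against WT, and 7 and 0 against CLIPΔ (all genes, 42.4% lower and 14% higher, and 42.1% and 12.8%). *Cdkn1a*, the p21 gene, fell by 0.84 on the log2 scale (adjusted p = 4.38e-04), and *Cdkn2d*, another inhibitor of Cdk4 and Cdk6, rose by 0.54 (SE 0.19, adjusted p = 0.0330). Of other cyclins and Cdks, 14 of 22 were lower in each comparison, with 1 and 2 higher, among them *Ccng2* at -1.46 (SE 0.26, adjusted p = 8.39e-04). Of replication genes, 15 and 14 of 41 were lower, a smaller share than of all genes (42.4% and 42.1%), and 6 and 2 higher, and of ubiquitin ligase genes, 8 and 11 of 20 were lower and 4 and 2 higher. *Fzr1*, an activator of the anaphase-promoting complex, rose by 0.76 (SE 0.25, adjusted p = 0.0233) against WT. The part of GC content and length in the counts of these lists was not tested.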

How the data were processed

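RNA-seq was made from 12 libraries of 4 genotypes (WT, n = 2; CLIPΔ, n = 2; *Ago2* KO, n = 4; *Ago2* KO/CLIPΔ, n = 4), which the labels call biological replicates without saying whether they were separate cultures, so p-values measure the spread between these libraries. The authors used CASAVA 1.4 and cutadapt on the reads, mapped them to mm10 with HISAT2 2.1.0, and deposited TPM values from HTSeq counts over a single (longest) transcript per gene. The strand setting of the counting is not given in the sources used here. TPM is relative to the other genes of a library. The authors deposited Trim71 CLIP-seq peaks with read counts, from STAR and CLIPper, per the methods. The small RNA-seq values were not used here.

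TPM values were tested as log2(TPM + 1), with a pseudocount of 1, so fold changes of genes of low level are understated. A gene was kept where its mean reached 1 TPM (11287 of 15034), and the kept genes entered 1 limma fit over the 4 genotypes (limma 3.58.1, R 4.3.3, eBayes with trend), with Benjamini-Hochberg adjustment over all of them and a threshold of 0.05. The fit was tested on simulated data with independent libraries and, for each gene, the same spread in every genotype. These data held no close pairs of libraries and no shift with GC content, so the simulation cannot speak to either. Fold changes given as ratios are ratios of mean TPM. The 42 genes, the pathway lists, and the tests were chosen with earlier results of these data known. All 42 are accounted for, and genes called in a comparison or among its 5 largest differences are given in every library. Genes outside the 42 are named from the pathway lists only where past the threshold. GC content and length were matched for 11212 of 11287 tested genes and all 42, from GENCODE longest transcripts.

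Deviations of same-numbered *Ago2* KO and *Ago2* KO/CLIPΔ libraries from their genotype means had correlations of 0.43, 0.32, 0.42, and 0.36 over genes, each above 0.1. The main fit took no pairing, and the number entered as a block only in alternatives. Differently numbered libraries of the same close pair correlated as much (0.39, 0.33, 0.35, and 0.47), so these correlations do not single out the number. Alternatives were other pseudocounts, filters, scalings, the replicate block, the close pair of libraries as a term, robust shrinkage, and leaving out each library. Others were added after seeing the data. These were averaged pairs, the block within each set of libraries, and the correction for GC content and length, alone and with the replicate block. The correction used 5 spline degrees of freedom and also recentred each library.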

Additional observations from a re-analysis of the deposited data

Results flagged for a closer look

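In 88 groups of 4 libraries (the 42 genes, *Ago2*, and *Trim71* in each *Ago2* KO genotype), the highest or lowest library was compared with its group's range, and 3 groups had a library set apart by more than Dixon's 95% limit, where chance gives about 1 in 20. *Cdc25c* in *Ago2* KO was at 7.37, 8.53, 7.34, and 7.15 TPM, and library 2 stood above the others by a gap of 0.839 of the range. *Chek1* in *Ago2* KO was at 17.0, 19.1, 16.7, and 16.7 TPM, again with library 2 highest (0.859). *E2f3* in *Ago2* KO/CLIPΔ was at 4.58, 4.79, 4.80, and 4.77 TPM, with library 1 lowest (0.857).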

How the results depend on the processing

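The 20 alternatives run for the *Ago2* KO comparisons kept the direction and side of the threshold for most single values, and the calls of 15 of 22 genes against WT and 17 of 23 against CLIPΔ were lost under at least 1 of them. Centring on the median gave 0.023 for *Cdk1* and 0.019 for *Ccnh* against WT, a turn in sign. The correction for GC content and length left 13 of the 40 genes called against WT and 13 against CLIPΔ (all genes, 4897 and 4767 of 11212). It turned, against WT, *Cdk13* to 0.057, *Cdkn1b* to 0.073, *Ccne2* to 0.15, *Ccnt2* to 0.20, *Ccnc* to 0.016, *Cdk1* to 0.082, *Cdk6* to 0.042, and *Ccnh* to 0.29, and, against CLIPΔ, *Ccne2* to 0.014, *Ccnt2* to 0.21, and *Ccnh* to 0.22. With the replicate block added, the values against WT were 0.11 for *Cdk13*, 0.20 for *Ccne2*, 0.022 for *Cdc25a*, 0.15 for *Ccnt2*, 0.059 for *Ccnc*, 0.25 for *Cdk1*, 0.13 for *Cdk6*, and 0.35 for *Ccnh*, and against CLIPΔ 0.065 for *Ccne2*, 0.10 for *Ccnb1*, 0.16 for *Ccnt2*, and 0.28 for *Ccnh*. Averaging the close pairs gave 3604 of 11397 genes and 16 of the 40 called against WT, and 3250 and 16 against CLIPΔ, with fewer libraries. Libraries 3 and 4 alone gave 4065 genes called against CLIPΔ.

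For CLIPΔ against WT (256 genes and 1 of the 40), 510 genes were called with no filter, 0 genes and 0 of the 40 with only these genotypes fitted, 424 with the close pair of libraries as a term, 48 (45 higher and 3 lower) and 0 with averaged pairs, 960 (468 and 492, in place of 165 and 91) with the block within each set, 436 and 0 with the correction for GC content and length, and 645 and 0 with that correction and the block. For *Ago2* KO/CLIPΔ against *Ago2* KO (99 and 0), 353 genes were called with only these genotypes, 180 and 1 with the block, 301 and 1 with the pair as a term, 0 with libraries 1 and 2 or 3 and 4 alone or with averaged pairs, 758 and 2 (*Ccna2* and *E2f4*) with the block within each set, 154 (76 higher and 78 lower, in place of 31 and 68) with the correction, and 392 (194 and 198) with the correction and the block. For the interaction (73), the counts were 168 with no filter, 48 with at least 1 TPM in every library, 128 with the pair as a term, 0 with libraries 1 and 2 alone, 12 with 3 and 4 alone, 0 with averaged pairs, 329 with the block within each set, 117 with the correction, and 179 with the correction and the block. The cause was not tested, other than that some alternatives use fewer libraries or test other numbers of genes.

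Leaving out 1 library gave 101 to 390 genes and 0 to 1 of the 40 for CLIPΔ against WT, 4150 to 6453 and 19 to 23 for *Ago2* KO against WT, 3648 to 6200 and 18 to 24 for *Ago2* KO/CLIPΔ against CLIPΔ, 21 to 68 and 0 for *Ago2* KO/CLIPΔ against *Ago2* KO, and 48 to 137 and 0 for the interaction. A genotype left with 1 library was assumed to vary like the others. Same-numbered WT and CLIPΔ libraries deviated together (r = 0.715 over genes, and -0.715 for the other numbers, which 2 libraries a group force to be equal and opposite), but 2 pairs are too few to take the number as a pairing, and the block gave 352 genes called with 1 of the 40 (*Cdk6*). WT and *Ago2* KO libraries share no more than a number, and the block gave 28 of the 40 called against WT and 26 against CLIPΔ. Of all 11287 genes, it gave 6893 and 6623. Depth is unknown from TPM and limits what can be said of genes near 1 TPM.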
